A study of Mus musculus with 4 samples.

Results

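In all, 10 genes of extracellular matrix breakdown were followed in the gastric corpus of mice given tamoxifen: the matrix metalloproteinase genes Mmp2, Mmp3, Mmp7, Mmp9, Mmp10, Mmp12, Mmp13 and Mmp14 and the inhibitor genes Timp1 and Timp3. They were taken by exact gene symbol, and they are 10 of the 18193 genes that the 4 arrays read. Where a gene has several probe sets the brightest on average stands for it, and the 17 probe sets of the 10 genes are all accounted for. The genes were selected on their differences from vehicle in earlier results of these same data, where several stood high, so their levels are given here as a description, with no test.

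The tissue was labelled gastric corpus epithelium, the lining of the acid-secreting part of the stomach. The mice were wild type and 6 weeks old. The labels name FVB/N, BALB/c and C57BL/6 as strains, but no label ties a strain or sex to an array. The 4 groups were vehicle at 2.5 days, tamoxifen at 12 hours, tamoxifen at 2.5 days and tamoxifen at 4.5 days, with 1 array each, and each array held RNA pooled from 3 mice. Tamoxifen binds and modulates estrogen receptors. It was given by intraperitoneal injection at 5 mg per 20 g of body weight, in 10% ethanol and 90% sunflower seed oil, the mixture that was the vehicle. Injections were given on 1 or 3 days, with the schedule of each pool not stated. The treatment served to bring about SPEM, spasmolytic polypeptide-expressing metaplasia, in which corpus glands take on transcripts of mucous neck cells. With 1 pool per group, the spread between mice was not measured and no p-value can be given. All 3 comparisons with vehicle share the same vehicle array, taken at 2.5 days.

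Matrix metalloproteinases are zinc-dependent proteases that are made as inactive proenzymes and, once activated, cut collagens, laminins, elastin and other proteins outside the cell. Collagenases, stromelysins, gelatinases, matrilysins and membrane-anchored members differ in what they cut. The tissue inhibitors of metalloproteinases (TIMPs) bind the active site and block it, and in injured or inflamed gut both proteases and TIMP1 are commonly made by macrophages, fibroblasts and epithelium at the wound edge.

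Values are log2 RMA expression, an array intensity scale on which a difference of 1 is 2-fold. A gene entered a comparison if the brighter of the 2 arrays reached the median of its array (5.30 to 5.34, over all probe sets), and it was counted if it differed by at least 2-fold. The 18 hybridisation controls, bacterial and phage RNAs spiked into each array, differed between arrays with an SD of 0.05 to 0.14, and no single one by more than 0.41. All 10 measured corpus gland markers, among them the proton pump genes Atp4a and Atp4b and the pepsinogen gene Pgc, were above the array median on all 4 arrays. None of the 10 was 2-fold from vehicle at 12 hours, where 0.996% of all genes that entered were higher and 1.92% lower. At both later times 5 of the 10 were at least 2-fold lower, against 1.94% and 2.72% of all genes that entered. At 4.5 days Pga5 was at -3.41, Pgc at -2.44, Cblif at -2.39, Atp4b at -1.31 and Atp4a at -1.10. The summed level of the 10 markers (log2 of the summed linear values) was 17.42 in vehicle and 17.27 at 12 hours. It was 17.00 at 2.5 days and 16.97 at 4.5 days, and the part of this in the values of the 10 Mmp and Timp genes was not tested. Smooth muscle and fibroblast markers were abundant too, with Acta2 at 13.71 and Col3a1 at 13.08 in vehicle. The 12-hour array stood apart. The summed level of 6 pancreatic acinar markers was 15.48 there and 10.96 to 11.30 on the other arrays. On those others Cela1, at 10.84 to 11.18, led the sum, and the rest were at 3.64 to 6.05. The median difference of the 6 from vehicle at 12 hours was 7.21. For 8 squamous epithelium markers the summed level was 8.38 at 12 hours and 12.39 to 13.15 on the others. Every value at 12 hours below comes from that array, and the part of these tissues in it was not tested.

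Mmp12, Mmp13, Mmp3 and Timp1 were at least 2-fold above vehicle on all 3 tamoxifen arrays, and Mmp10 was on the arrays at 2.5 and 4.5 days. The largest differences, at 4.5 days, belonged to Mmp13 and Mmp12, at 10.37-fold and 9.97-fold. Both are taken from vehicle levels under the array median, and with values under the median raised to it the differences were 2.29 for Mmp13 and 3.02 for Mmp12 in place of 3.37 and 3.32, so their order and the exact folds are not settled. Mmp2, Mmp7, Mmp14 and Timp3 passed the level filter in every comparison and stayed within 2-fold, and Mmp9 was too dim to enter any. At 12 hours 4 of the 10 genes were at least 2-fold higher, where 0.996% of 12253 tested genes were. At 2.5 days 5 of the 10 were higher, against 3.32% of 12295 genes, and at 4.5 days again 5, against 3.80% of 12303 genes. In bulk RNA, more cells of a type and more RNA per cell cannot be told apart. None was at least 2-fold lower in these 3 comparisons, where the shares over all tested genes were 1.92%, 1.94% and 2.72%. The median difference over all 10 genes was 0.44 at 12 hours, 0.72 at 2.5 days and 0.86 at 4.5 days, and over all 18193 genes it was -0.02 at each time. Since the genes were chosen with such differences in view, nothing is read from these shares. A filter at the 75th percentile of the array lowered the counts of higher members to 1, 2 and 3, where 0.999%, 3.49% and 4.09% of all genes tested under that filter were higher.

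**Figure D1:**
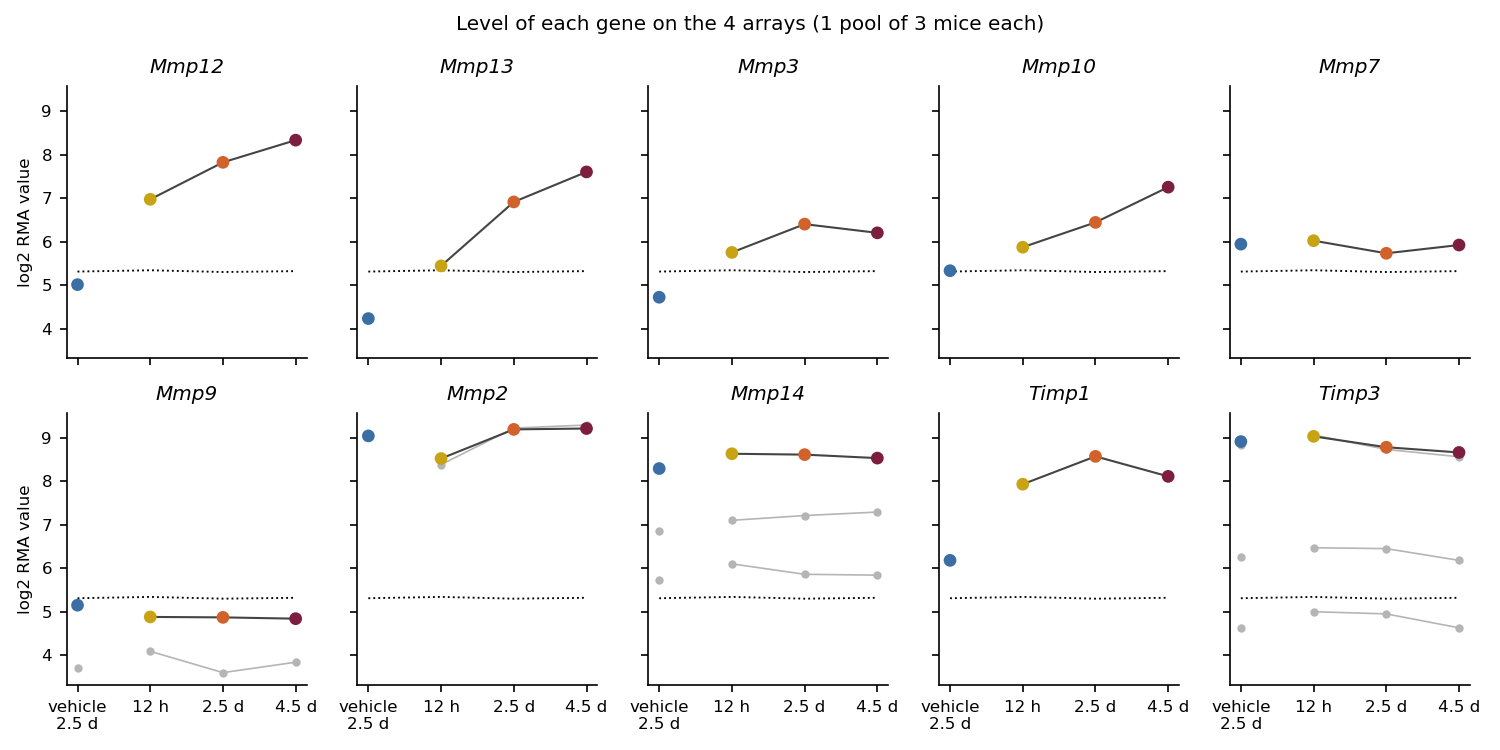
Level of each of the 10 genes (log2 RMA value, vertical axis) on the 4 arrays (horizontal axis), with coloured points for the probe set used, grey points for other probe sets of the gene and a dotted line at the array medians. Mmp12 and Mmp13 climb from under the dotted line in vehicle to 8.33 and 7.60 at 4.5 days, whereas Mmp9 lies under it on every array.

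Mmp12 encodes macrophage elastase, which cuts elastin and other matrix proteins. Its level was 5.01 in vehicle, 6.97 at 12 hours, 7.82 at 2.5 days and 8.33 at 4.5 days. Vehicle was the lowest of the 4 arrays, and each later tamoxifen array was higher than the one before. The differences from vehicle were 1.96, 2.81 and 3.32, or 3.89-fold, 7.02-fold and 9.97-fold. Among genes tested, Mmp12 had the 33rd highest difference at 12 hours, the 5th at 2.5 days and the 6th at 4.5 days. Its vehicle level was under the array median, and with the floor at the median its differences were 1.66, 2.51 and 3.02. It has a single probe set on the array, so no second reading exists.

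Mmp13 encodes the main interstitial collagenase of the mouse, which cuts fibrillar collagen. It was at 4.23 in vehicle, 5.44 at 12 hours, 6.91 at 2.5 days and 7.60 at 4.5 days. The order of the arrays was that of Mmp12, but the gain lay later. At 12 hours the difference was 1.21 (2.32-fold), and at 2.5 and 4.5 days it was 2.68 and 3.37 (6.41-fold and 10.37-fold). Its rank from the top went from 93 at 12 hours to 11 and 5. Only 1 probe set reads it as well. In vehicle it lay well under the array median, where signal and background are hard to separate. With values under the median raised to the median before subtraction, its differences became 0.13, 1.60 and 2.29, so the 2-fold call at 12 hours was lost under that floor.

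Mmp3 and Mmp10 encode the stromelysins 1 and 2, which cut proteoglycans, laminin and fibronectin and can activate procollagenases. Mmp3 was at 4.72 in vehicle, 5.75 at 12 hours, 6.40 at 2.5 days and 6.20 at 4.5 days. All 3 tamoxifen arrays were above vehicle, with the highest at 2.5 days, and the last 2 differed by -0.20. Its differences from vehicle were 1.04, 1.69 and 1.49. The first is just past 2-fold, and it was 0.99 with hybridisation controls set equal. With the floor at the array median Mmp3 was at 0.44, 1.09 and 0.89, so only the call at 2.5 days was kept.

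Mmp10 was at 5.33 in vehicle, 5.87 at 12 hours, 6.44 at 2.5 days and 7.25 at 4.5 days. It is the gene of the group whose largest step came last, 0.81 from 2.5 to 4.5 days. Its differences from vehicle were 0.54, 1.11 and 1.92, or 1.46-fold, 2.15-fold and 3.78-fold. In vehicle it was just above the array median, so the floor has little bearing on it.

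These 4 genes lie in 1 cluster. On mouse chromosome 9 the RefSeq annotation of GRCm38.p6 places 10 protein-coding genes from Mmp13 to Mmp7, both included, and all 10 are Mmp genes. In order they are Mmp13, Mmp12, Mmp1b, Mmp3, Mmp1a, Mmp10, Mmp8, Mmp27, Mmp20 and Mmp7, of which Mmp27 was not analysed here. The 4 genes at least 2-fold higher at 2.5 and 4.5 days are at places 1, 2, 4 and 6 of this row. Mmp1b and Mmp1a, the collagenase-like genes between them, had levels of 2.56 to 2.79 on all arrays and differences of at most 0.16. Mmp8, the neutrophil collagenase gene, was at 4.20 to 4.50 and the enamel protease gene Mmp20 at 3.09 to 3.57, also under the array median on every array. Mmp7, at the far end, was above the median and stayed within 0.21 of vehicle. Direct neighbours in the cluster thus had unlike levels. Among the measured cluster genes that were not 2-fold higher, only Mmp7 was bright enough for its difference, or its lack, to be read.

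**Figure D2:**
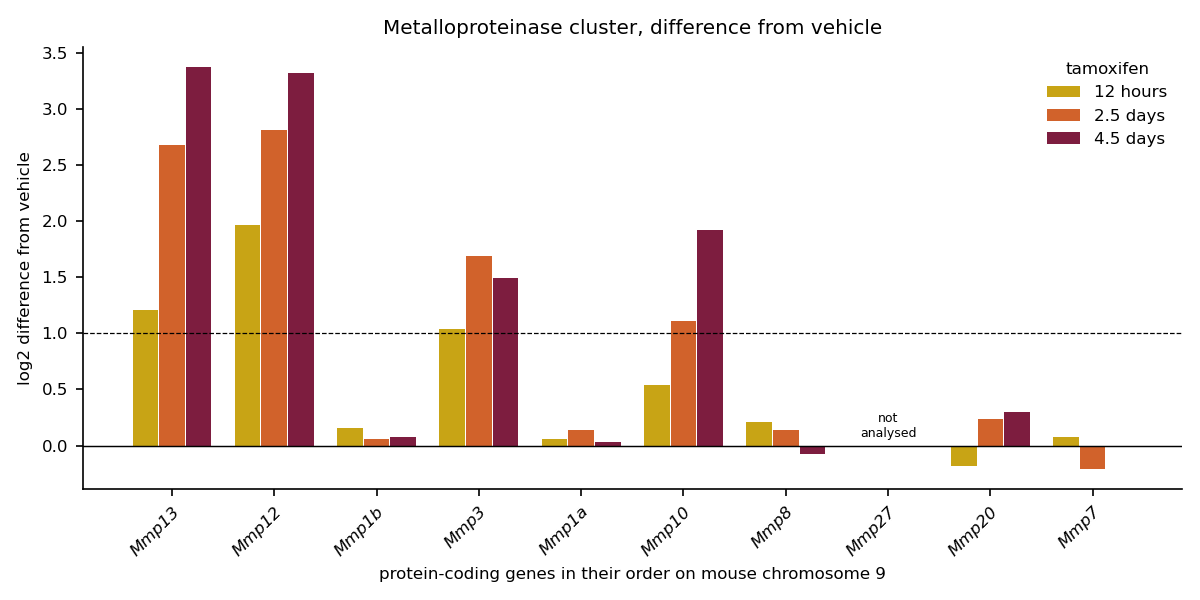
Difference from vehicle (log2, vertical axis) at the 3 times for the Mmp genes of chromosome 9, placed by their order and not to scale, with a dashed line at 2-fold. Bars of Mmp13, Mmp12, Mmp3 and Mmp10 pass the line on the later arrays, and those of Mmp1b, Mmp1a, Mmp8, Mmp20 and Mmp7 stay at or under 0.30.

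Because these genes stood high together, their promoters are shown, with that of Mmp7 as the neighbour that stayed within 2-fold. AP-1, a pair of FOS and JUN family proteins, is the textbook regulator of inducible Mmp genes, and it binds TGAGTCA and close variants. Sequences are from RefSeq (GRCm38.p6), 300 bases each, from 250 before the annotated start to 50 from it, all on the plus strand and written 5′ to 3′. Capitals mark every match to TGANTCA (N is any base) and to the TATA-box letters TATAAA, both searched on both strands. The regions are chr9:7272264-7272563 for Mmp13, chr9:7347124-7347423 for the second of 2 listed starts of Mmp12, chr9:7445572-7445871 for Mmp3, chr9:7502092-7502391 for Mmp10 and chr9:7691840-7692139 for the first of 2 listed starts of Mmp7.
Mmp13: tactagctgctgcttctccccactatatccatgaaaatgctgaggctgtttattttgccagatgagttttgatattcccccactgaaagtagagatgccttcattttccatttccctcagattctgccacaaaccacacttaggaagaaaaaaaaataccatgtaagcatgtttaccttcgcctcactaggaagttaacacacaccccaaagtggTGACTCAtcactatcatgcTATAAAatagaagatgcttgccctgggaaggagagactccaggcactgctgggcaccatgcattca
Mmp12: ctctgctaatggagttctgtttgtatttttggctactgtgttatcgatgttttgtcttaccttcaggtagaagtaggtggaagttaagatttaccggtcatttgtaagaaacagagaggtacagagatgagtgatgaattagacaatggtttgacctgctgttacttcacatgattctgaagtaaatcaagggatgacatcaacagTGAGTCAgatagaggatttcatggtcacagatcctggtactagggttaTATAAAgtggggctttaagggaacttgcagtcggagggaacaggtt
Mmp3: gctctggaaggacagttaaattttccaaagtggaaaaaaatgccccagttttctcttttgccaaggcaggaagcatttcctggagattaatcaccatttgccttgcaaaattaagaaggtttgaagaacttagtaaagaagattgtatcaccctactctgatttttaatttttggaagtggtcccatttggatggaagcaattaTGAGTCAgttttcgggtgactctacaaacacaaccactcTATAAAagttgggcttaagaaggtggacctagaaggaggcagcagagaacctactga
Mmp10: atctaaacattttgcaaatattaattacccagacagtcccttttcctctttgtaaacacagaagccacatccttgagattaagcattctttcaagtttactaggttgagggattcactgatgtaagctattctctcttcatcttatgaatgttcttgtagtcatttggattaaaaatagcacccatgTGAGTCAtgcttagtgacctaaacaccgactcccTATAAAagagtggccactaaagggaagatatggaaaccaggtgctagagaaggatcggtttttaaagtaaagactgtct
Mmp7: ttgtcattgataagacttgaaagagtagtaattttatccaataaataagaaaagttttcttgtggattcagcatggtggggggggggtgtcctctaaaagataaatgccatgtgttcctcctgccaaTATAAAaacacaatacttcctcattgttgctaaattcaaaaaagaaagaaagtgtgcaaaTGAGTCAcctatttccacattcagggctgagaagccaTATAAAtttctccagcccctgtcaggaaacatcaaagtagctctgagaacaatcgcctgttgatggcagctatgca
The TGANTCA match began 35 bases upstream of the annotated start in Mmp13, 44 in Mmp12, 46 in Mmp3 and 63 in Mmp10 and Mmp7. Each time TATAAA followed, from 16 bases upstream in Mmp13, 7 in Mmp3, 29 in Mmp10 and 26 in Mmp7. In Mmp12 it began 4 bases downstream of the annotated start. In Mmp13 the letters of the TGANTCA match were TGACTCA, which is TGAGTCA read on the other strand. In the other 4 genes they were TGAGTCA. Of 32851 promoters of the same length in the table, 7.81% held TGANTCA, 13.6% held TATAAA and 1.54% held both. That last share counts the pair in any order and on either strand. The promoters of Mmp1a, Mmp1b and Mmp20, which were dim on all arrays, held both as well, with the letters TGAATCA in Mmp20. The other listed starts of Mmp12 and Mmp7 and the promoters of Timp1, Timp3 and Mmp14 held neither. Variants of the AP-1 site other than TGANTCA were not searched, so such variants may be present in them. Thus the letters were shared by genes at least 2-fold above vehicle and by Mmp7, which stayed within 2-fold of it. Mmp1a, Mmp1b and Mmp20 were too dim for a difference, or its lack, to be read. A match is no evidence that AP-1 was bound. Promoters of Mmp2 and Mmp9 are not analysed here.

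Timp1 encodes the secreted inhibitor that is the most readily induced of its family. Its level was 6.18 in vehicle, 7.93 at 12 hours, 8.57 at 2.5 days and 8.11 at 4.5 days. All 3 tamoxifen arrays were above vehicle, and the highest was that at 2.5 days, as for Mmp3. The differences were 1.75, 2.39 and 1.92, or 3.36-fold, 5.24-fold and 3.79-fold. From 2.5 to 4.5 days Timp1 was lower by 0.47 (a difference of -0.47), a step in which Mmp12, Mmp13 and Mmp10 were higher by 0.51, 0.69 and 0.81. Timp1 was above the array median on all 4 arrays, so its folds do not rest on a dim vehicle value.

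The other members stayed within 2-fold. Timp3, whose protein is bound to the matrix, was at 8.91 in vehicle, 9.03 at 12 hours, 8.78 at 2.5 days and 8.66 at 4.5 days. Its difference of 0.11 at 12 hours was followed by -0.13 and -0.26. Its 4 probe sets gave 0.11 to 0.37 at 12 hours, -0.13 to 0.33 at 2.5 days and -0.26 to 0.01 at 4.5 days. Its direction at both later times thus depended on the probe set. With hybridisation controls set equal Timp3 was at -0.01 at 2.5 days and -0.1 at 4.5 days.

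Mmp14 encodes a membrane-anchored metalloproteinase that activates the gelatinase made from Mmp2. It was at 8.29 in vehicle and 8.63, 8.61 and 8.53 on the tamoxifen arrays. Vehicle was the lowest array for all 3 of its probe sets, by 0.10 to 0.43, none of them near 2-fold. Mmp2 was at 9.04 in vehicle, 8.52 at 12 hours, 9.19 at 2.5 days and 9.21 at 4.5 days. The 12-hour array alone was lower, by a difference of -0.52, and the second probe set of Mmp2 gave -0.68 there. At 2.5 and 4.5 days Mmp2 was at 0.15 and 0.17 from vehicle. Markers of fibroblasts, the cells in which Mmp2 is best known, had a summed level of 14.30 at 12 hours and 14.54 to 14.66 on the other arrays. At 12 hours 6 of 9 were below vehicle and 3 above, with a median difference of -0.21 and a highest of 0.38. Only 1 of 9 was at least 2-fold lower there, against 1.92% of all tested genes, the matrix proteoglycan gene Lum at -1.05. Of these 9 markers only Fap was under the array median, and the part of fibroblast content in the Mmp2 value was not tested.

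Mmp7 encodes matrilysin, an epithelial protease made by Paneth cells of the mouse small intestine. It was at 5.94 in vehicle, 6.02 at 12 hours, 5.73 at 2.5 days and 5.92 at 4.5 days. These arrays spanned 0.29 in all. Mmp9, the gelatinase best known from neutrophils and macrophages, was under the array median on every array, at 5.15 in vehicle and 4.84 to 4.88 after tamoxifen. Its second probe set was at 3.60 to 4.09. At such levels a difference, or its lack, cannot be read from these arrays.

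**Figure D3:**
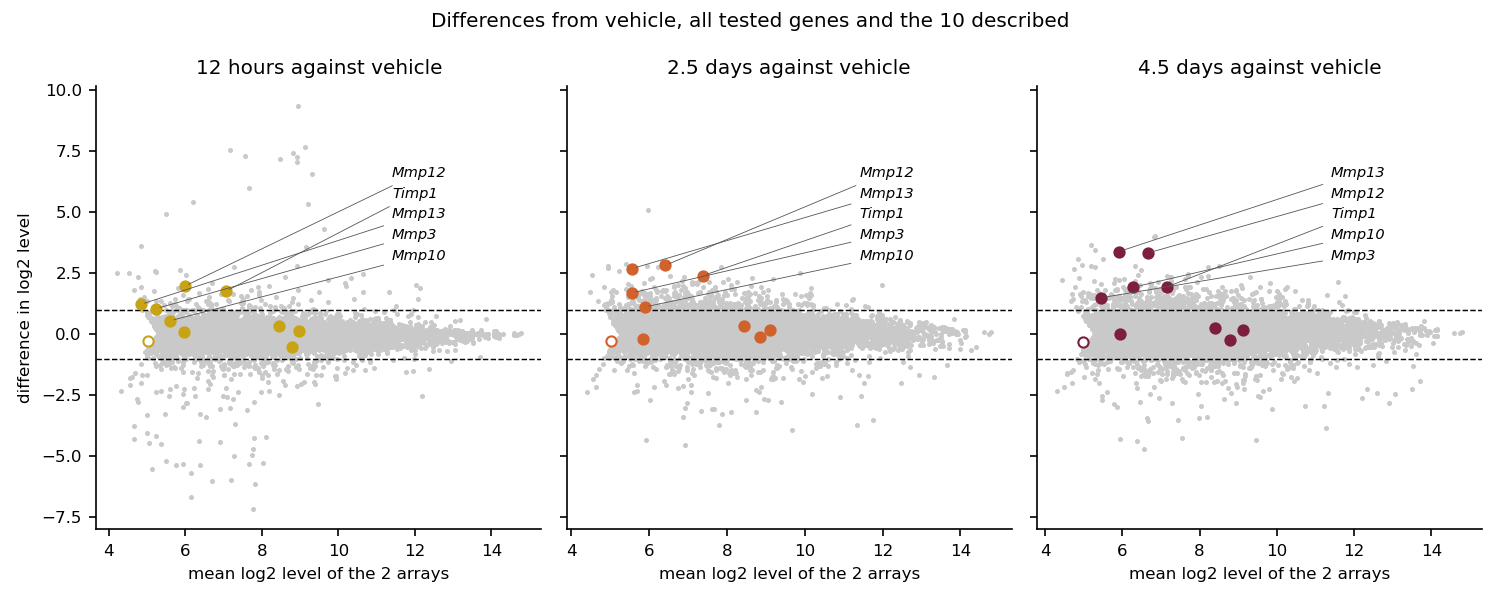
Difference from vehicle (log2, vertical axis) against the mean level of the 2 arrays compared (log2, horizontal axis) for all tested genes in grey and the 10 genes in colour, with Mmp9, which did not enter, as an open circle and dashed lines at 2-fold. Mmp12 and Mmp13 lie near the upper edge of the cloud at 2.5 and 4.5 days, while at 12 hours the farthest grey points are other genes.

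Between tamoxifen arrays, which the comparisons with vehicle also use, the values were as follows. From 12 hours to 2.5 days 1 of the 10 genes was at least 2-fold higher, Mmp13 at 1.47 (2.77-fold), where 2.58% of 12205 tested genes were, and none was lower, where 0.655% were. Mmp12 was at 0.85 in that step, and it passed 2-fold with hybridisation controls set equal, at 1.03. Mmp2, Mmp3, Timp1 and Mmp10 were higher by 0.67, 0.65, 0.64 and 0.57. From 2.5 to 4.5 days no member was 2-fold higher or lower, with 0.248% and 0.182% of 12117 tested genes past the threshold. These 2 arrays were the closest of the pairs compared, with a robust SD of 0.15 over tested genes, and Mmp10 and Mmp13 ranked 45 and 66 from the top of that step.

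The rest of the family was described from a list of 18 genes, 13 of them measured. None was at least 2-fold from vehicle on any tamoxifen array, and 7 of the 13 entered each comparison with vehicle. Over all tested genes 0.996%, 3.32% and 3.80% were at least 2-fold higher at 12 hours, 2.5 and 4.5 days. The shares lower were 1.92%, 1.94% and 2.72%. The lists of related genes and markers were drawn up with earlier results known, so nothing is read from their counts. The median differences over all 13 genes were 0.04, -0.04 and -0.08. The largest was that of Mmp11, stromelysin 3, at -0.63 at 2.5 days, from 6.05 in vehicle to 5.42. Timp4 and Reck, a membrane-anchored inhibitor of metalloproteinases, were at -0.54 and -0.45 at 4.5 days, and Mmp23 was at 0.46 at 2.5 days. Timp2, the inhibitor that takes part in activation of Mmp2 protein by Mmp14 protein, was at 10.30 in vehicle and 9.94 at 4.5 days. So among inhibitor genes Timp1 was higher by 1.92 at 4.5 days, and Timp2, Timp3, Timp4 and Reck were at -0.36, -0.26, -0.54 and -0.45. The probe sets of Timp3 spanned -0.26 to 0.01 there, and of the 6 probe sets of Timp2 only the brightest is given. The robust SD over tested genes was 0.39 in that comparison, so these small differences are not read as a fall.

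The plasminogen activator system, which makes the protease plasmin and thereby can activate metalloproteinases, had 5 of 7 listed genes measured. At 4.5 days 2 of the 5 were at least 2-fold higher, against 3.80% of all tested genes. Plau, the urokinase gene, was at 6.85 in vehicle, 6.10 at 12 hours, 7.32 at 2.5 days and 8.26 at 4.5 days. Plaur, its receptor gene, was at 7.78, 8.40, 8.62 and 8.99 in the same order, higher on each later array. At 2.5 days none of the 5 passed 2-fold, where 3.32% of all tested genes were higher and 1.94% lower. At 12 hours 1 did, Serpinb2, an inhibitor of urokinase that is also a squamous epithelium gene, at -2.67. Over all tested genes 1.92% were lower at that time. The tissue-type activator gene Plat was at -0.55, 0.12 and 0.77.

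Of 12 ADAM and ADAMTS genes, relatives that shed cell surface proteins or cut proteoglycans, 1 was at least 2-fold higher at 12 hours. At 2.5 days 4 were and at 4.5 days 2, and none was lower at any time. Over all tested genes 0.996%, 3.32% and 3.80% were higher and 1.92%, 1.94% and 2.72% lower. Adam8, a sheddase of myeloid cells, was at 4.82 in vehicle and 7.24, 6.90 and 7.03 after tamoxifen. Unlike Mmp12, it was highest at 12 hours, with differences of 2.42, 2.08 and 2.20. Its vehicle level was under the array median, so the exact folds are not settled. The proteoglycan-cutting Adamts4 was at 0.65, 1.23 and 1.27, Adamts9 at 0.66, 1.24 and 0.94 and Adamts1 at 0.28, 1.17 and 0.96.

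Among 14 measured genes of matrix proteins that these enzymes cut, none passed 2-fold at 12 hours or 2.5 days. At 4.5 days 2 were higher, against 3.80% of all tested genes. They were the laminin gene Lama1, at 1.43 from a dim vehicle level of 4.02, and the tenascin gene Tnc, at 1.21 from 9.32. Their median difference was 0.36 at 4.5 days, with all 14 above 0. The fibrillar collagen gene Col1a1 was at -0.41, 0.58 and 0.54, and the basement membrane collagen gene Col4a1 at 0.64, 0.22 and 0.35.

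Genes of AP-1 and ETS factors were described since both families act on Mmp promoters. Of 12, 2 were at least 2-fold higher at 12 hours, none at 2.5 days and 2 at 4.5 days, with medians of 0.60, 0.36 and 0.46. Over all tested genes 0.996%, 3.32% and 3.80% were higher. Atf3 was at 1.48, 0.57 and 0.36, highest at 12 hours. Fosl1 was at 1.09, 0.93 and 1.29, Junb at 0.92, 0.97 and 1.02 and Fosb at 0.74, 0.58 and 0.87, all above vehicle on each tamoxifen array. Fos itself, at 11.53 in vehicle, was within 0.20 of it throughout.

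Of 12 cytokine genes that induce or restrain metalloproteinases, Il1rn, the gene of the interleukin 1 receptor antagonist, was at 2.53, 2.87 and 3.08. Its vehicle level of 3.96 was under the array median, so the exact folds are not settled. Counts at least 2-fold higher were 2, 1 and 3 at 12 hours, 2.5 and 4.5 days, with 1 lower at 12 hours. Of all tested genes 0.996%, 3.32% and 3.80% were higher, and 1.92% were lower at 12 hours. Lif was at 1.28 at 12 hours and 0.35 and 0.21 later, from a vehicle level of 4.97, also under the median. Il11 was at -0.35, 0.08 and 1.17. Il33, an alarmin of epithelial cells, was at 9.60 in vehicle, 8.32 at 12 hours, 10.33 at 2.5 days and 11.36 at 4.5 days. Il1b was at 4.93 in vehicle and 5.78 at 4.5 days, and Il1a, Tnf and Il6 were under the array median on all 4 arrays.

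**Figure D4:**
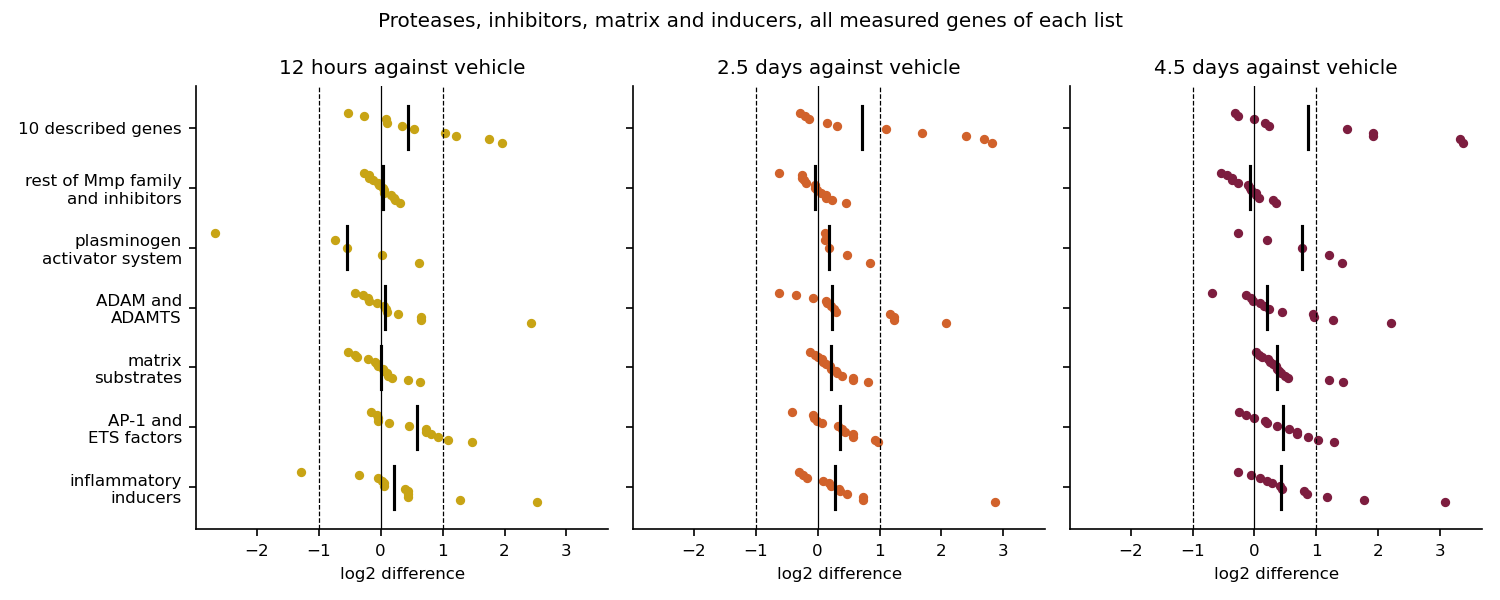
Difference from vehicle (log2, horizontal axis) for every measured gene of the 10 described and of 6 related lists at the 3 times, with a black bar at each list's median and dashed lines at 2-fold in either direction. The rest of the Mmp family and inhibitors lies between -0.63 and 0.46, inside the lines at all times.

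Markers of other cell types had unlike differences on these arrays. Of 12 macrophage markers 1 was at least 2-fold higher at 12 hours, 4 at 2.5 days and 1 at 4.5 days. The shares over all tested genes were 0.996%, 3.32% and 3.80%. All 12 markers were above vehicle at 2.5 and 4.5 days. Their summed level was 11.64 in vehicle, 11.77 at 12 hours, 12.25 at 2.5 days and 12.22 at 4.5 days, with 1 marker, Itgam, under the array median on every array. Cd68, a lysosomal protein of macrophages, was at 6.23, 7.07, 7.78 and 7.05 in that order, highest at 2.5 days as Timp1 was. Adgre1 and Csf1r, 2 defining macrophage genes, were within 0.36 of vehicle. The largest difference of any of the 12 was 1.55, that of Cd68 at 2.5 days. The part of macrophage content in the values of Mmp12, Mmp13 and Timp1 was not tested.

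Neutrophil markers were near background, with 5 to 8 of 9 under the array median, and Mpo, Elane, Ngp, Cxcr2 and Csf3r under it on every array. Their summed level was 8.18, 8.30, 9.03 and 8.38 in the order vehicle, 12 hours, 2.5 and 4.5 days. At 2.5 days S100a8 led it, at 2.77 from a vehicle level of 4.56, under the array median. Smooth muscle markers went the other way, with 9 of 9 below vehicle at 2.5 and 4.5 days (Lmod1 by only 0.08 at 2.5 days, less than the scaling on hybridisation controls adds) and a summed level of 15.27, 14.91, 14.67 and 14.65. Of 8 mast cell markers 3 were at least 2-fold higher and 1 lower at 4.5 days, against 3.80% and 2.72% of all tested genes. The summed level of the 8 was then 10.56, from 9.88 in vehicle. The mucosal protease genes Mcpt1 and Mcpt2 were then at 3.64 and 2.37 from vehicle, Mcpt1 from a vehicle level of 3.38, under the array median. The mast cell receptor gene Ms4a2 was under the array median throughout. Of 5 Paneth cell and intestinal markers 1 was at least 2-fold higher and 1 lower at 2.5 days. At 4.5 days 2 were higher and 1 lower. Of all tested genes 3.32% were higher and 1.94% lower at 2.5 days, and 3.80% and 2.72% at 4.5 days. The lysozyme gene Lyz1 was at 1.13 and 1.57 from vehicle at these times, whereas the enterocyte gene Fabp2 was at -1.18 and -1.20. The lectin gene Itln1 was at 0.61 and 1.62, from a vehicle level of 4.89, under the array median.

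**Figure D5:**
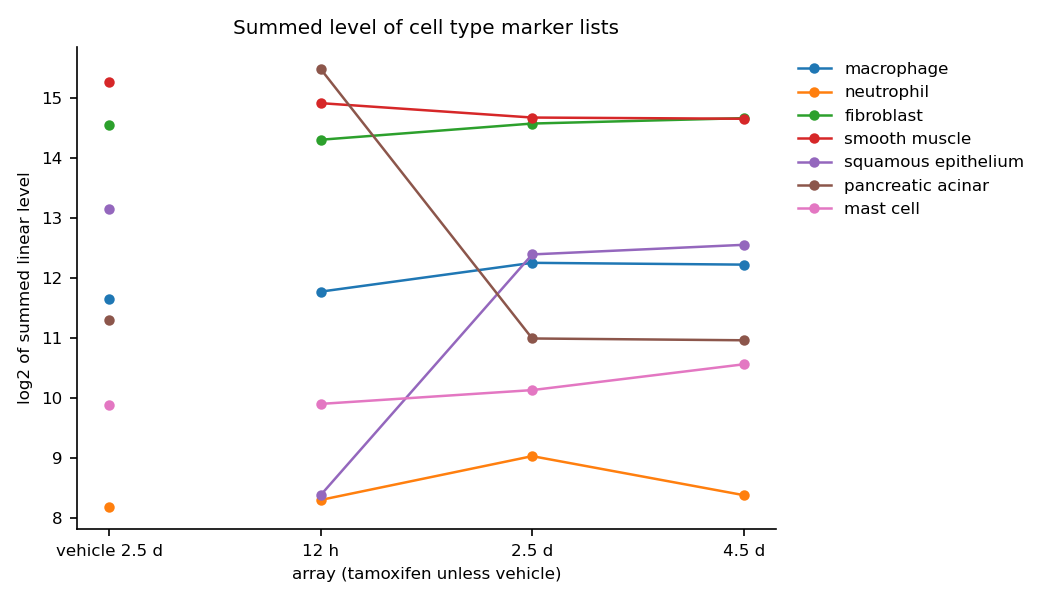
Summed level of 7 marker lists (log2 of summed linear values, vertical axis) on the 4 arrays (horizontal axis), with lines joining the tamoxifen arrays only. Pancreatic markers peak at 15.48 and squamous markers drop to 8.38 on the 12-hour array, while macrophage markers run from 11.64 in vehicle to 12.22 at 4.5 days.

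For each gene at least 2-fold from vehicle, the 3 genes with the most similar profile were found among 12012 named genes, by Euclidean distance between levels on the 4 arrays after centring each gene on its own mean. With 4 arrays such nearness is a description. Closest to Mmp12 were the cystine transporter gene Slc7a11 (distance 0.36), the cohesion factor gene Dscc1 (0.48) and Il1rn (0.59). Closest to Mmp13 were the pantetheinase gene Vnn1 (0.50), Clec7a, the receptor Dectin-1 of myeloid cells (0.54), and Khdc1a (0.60). Mmp3 had nearer neighbours, the platelet and leukocyte gene Plek (0.10), the sphingosine kinase gene Sphk1 (0.17) and the replication licensing gene Cdt1 (0.19). Mmp10 lay by the prostaglandin synthase gene Ptgs2 (0.14), Cmpk2 (0.20) and the fibrillin gene Fbn2 (0.21). Timp1 lay by Ms4a6d (0.31), Acot1 (0.43) and the interferon-induced Rtp4 (0.52). Ptgs2, the inducible cyclooxygenase gene, was at 6.25, 6.85, 7.54 and 8.29 on vehicle and the 3 tamoxifen arrays, and Mmp10 was at 5.33, 5.87, 6.44 and 7.25.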

How the data were processed

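RNA of the gastric corpus, pooled from 3 mice per array, was measured on 4 Affymetrix mouse arrays. The deposited values are log2 values from the authors, whose processing notes name RMA and Partek with neither version nor order (per the submitters' processing notes). As background, RMA corrects background, gives all arrays the same distribution and compresses differences of dim genes. The log2 scale is inferred from the values (2.06 to 14.85), since no label states it. Of 45101 probe sets 34945 had exactly 1 gene symbol in the platform annotation and were no control, which gave 18193 genes. A gene was read from its brightest probe set.

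Differences were taken in 5 comparisons with Python 3.11.15, pandas 2.3.3 and numpy 2.4.6. The members and all gene lists were chosen with earlier results of these data known. Of each other list up to 4 genes with the largest difference from vehicle were named by rule. Other list genes were named after their values were seen. Precision is limited by the number of arrays, and no test across samples was possible. Alternatives were other probe sets, filters, fold thresholds, scaling on hybridisation controls and a floor. Promoters came from RefSeq, in which 8 of the 10 members had an entry.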

Additional observations from a re-analysis of the deposited data

Results flagged for a closer look

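Of the related genes named, 6 had differences from vehicle of opposite sign at 2 times, both larger than that of any hybridisation control. No member had such a pair. The related genes were named for their large differences from vehicle, and the share over all genes was not computed. Nothing is therefore read from these counts. Each of the 6 was below vehicle at 12 hours and above it later. These controls measure technical spread only, the spread between pools is unknown, and whether the times differ was not tested. Il33 went from -1.28 at 12 hours to 0.73 at 2.5 days and 1.76 at 4.5 days, a gap between tamoxifen arrays of 2.01 and 3.04. Plau went from -0.74 to 0.47 and 1.41, a gap of 1.21 and 2.16. Plat went from -0.55 at 12 hours to 0.77 at 4.5 days, a gap of 1.32, and Il11 from -0.35 to 1.17, a gap of 1.52. Il11 was just above the array median in vehicle, at 5.42, and under it at 12 hours, at 5.07. The change of sign of Il11 is therefore not read. For the matrix genes Lama1 and Col1a1 the gaps from 12 hours were 1.35 and 1 at 2.5 days and 1.95 and 0.95 at 4.5 days. Lama1 was under the array median in vehicle, at 12 hours and at 2.5 days, at 4.02, 3.50 and 4.84. Its change of sign therefore cannot be read from these arrays. The 12-hour array is the one on which squamous markers had a summed level of 8.38, against 13.15 in vehicle, and their part in these values was not tested.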

How the results depend on the processing

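Counts of members at least 2-fold lower were 0 in all 5 comparisons under all 8 alternatives run. Of all genes tested, 0.0495% to 8.21% were lower past the threshold of the setting, so these counts of 0 are not read as a result. In these counts of higher members, the percentage that follows is the share of all genes tested under the same setting. A filter at the 75th percentile of the array gave 1 at 12 hours in place of 4 (0.999%), 2 at 2.5 days (3.49%) and 3 at 4.5 days (4.09%) in place of 5 each, and 0 from 12 hours to 2.5 days in place of 1 (2.47%). A 3-fold threshold gave 2 at 12 hours (0.441%) and 0 from 12 hours to 2.5 days (1.14%). A 1.5-fold threshold gave 5 in the step from 12 hours to 2.5 days (7.52%) and 2 in the step after it (0.933%). The floor at the array median gave 2 at 12 hours (0.857%), and equal hybridisation controls gave 2 from 12 hours to 2.5 days (3.63%). Those controls had a mean difference of -0.13 at 2.5 days and -0.16 at 4.5 days from vehicle, and -0.17 from 12 hours to 2.5 days, so equalising them raises every difference by as much. Every other count lay within 1.5 times its main value. No called difference of a member changed sign, but none could have under these settings, so nothing is read from it. Each called gene has 1 probe set, a floor cannot reverse a sign, and equalising the controls moved differences by at most 0.17. Signal over background is the limit for Mmp13, Mmp3 and Mmp12 in vehicle and for Mmp9 on every array. No paired analysis was possible because each group had 1 array, and no array could be left out of its group.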
